A study of Homo sapiens with 18 samples.

Results

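The HOXC cluster is a row of 9 homeobox genes on chromosome 12, which are, in the direction of transcription, HOXC13, HOXC12, HOXC11, HOXC10, HOXC9, HOXC8, HOXC6, HOXC5 and HOXC4. They were taken by name and are 9 of the 20005 protein-coding genes in GENCODE release 44 on hg38. The intervals described are those that overlap 2 kb on either side of a transcription start site (TSS) of such a gene. Per gene and histone mark, the interval with the highest mean count over the 4 libraries represents the gene, and genes may share it.

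The cells were MOLM-13, an established human line from an acute myeloid leukemia that carries rearranged KMT2A. They grew in RPMI with fetal bovine serum and received 100 nM PR-957 (ONX-0914), an inhibitor of the immunoproteasome subunit PSMB8, or DMSO, its diluent. The labels give a treatment of 72 h, and a legend in the paper gives 48 h for this assay. H3K27ac, H3K27me3, H3K4me1 and H3K4me3 were each profiled by Cut&Tag, which tags the DNA around an antibody with a transposase, in 2 libraries per treatment, 16 libraries in all. The 2 IgG samples are not analysed here. Per library, the counts on the listed intervals summed to 9885836 to 14165777 (H3K27ac), 10032503 to 12047958 (H3K27me3), 15204186 to 30584219 (H3K4me1) and 30070119 to 44591150 (H3K4me3). Listed intervals overlap, so these sums count some reads more than once and are not sequencing depths. They are the library totals on which the levels below rest.

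HOX genes encode transcription factors that give cells their position along the body axis, and each cluster is opened or silenced in blocks. Polycomb repressive complex 2 writes H3K27me3 over silent HOX genes, while KMT2A-containing complexes keep H3K4 methylation at active ones. H3K4me3 marks start sites, H3K4me1 marks enhancers and weak promoters, and H3K27ac marks active ones. Leukemias with a KMT2A rearrangement are known for high expression of HOXA genes and MEIS1, and HOXC genes are not part of that signature.

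The marks divided the HOXC genes into 4 groups. No H3K27ac interval lay within the window of any of the 9 genes, while all 9 had H3K27me3 intervals. HOXC13, HOXC12, HOXC11, HOXC8 and HOXC5 had H3K27me3 intervals only. HOXC10 had H3K4me1 besides, HOXC4 had H3K4me3 besides, and HOXC9 and HOXC6 had all 3 marks. HOXC13, HOXC12 and HOXC11, genes of the posterior body and limbs, thus carried no listed H3K4 methylation. Neither did HOXC8, a gene of the trunk, nor HOXC5, near the other end of the cluster. HOXC10 and HOXC9, which lie between HOXC11 and HOXC8, had such intervals, so the groups did not follow the order of the genes.

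H3K27me3 was shared by the whole cluster. Its 4 listed intervals in the window each cover all 9 genes, so 36 of 36 pairs of genes share an interval. They overlap one another and are 146.681 to 178.082 kb long. The widest, chr12:53917109-54095191, had the highest mean count and represents every HOXC gene, so the 9 genes have 1 H3K27me3 value between them and are not 9 measurements.

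H3K4 methylation was shared by few genes. HOXC10 had 3 overlapping H3K4me1 intervals of its own, and HOXC9 and HOXC6 shared 1 further H3K4me1 interval. For H3K4me3, HOXC9 and HOXC6 shared 3 overlapping intervals and HOXC6 and HOXC4 shared 4. HOXC6 belongs to both groups because its 4 annotated start sites are spread from 53990624 to 54028440, on either side of HOXC8. HOXC6 is represented by the interval it shares with HOXC4, and HOXC9 by an interval it shares with HOXC6. Of the 36 pairs of genes, 1 shares an H3K4me1 interval and 2 share an H3K4me3 interval.

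**Figure D1:**
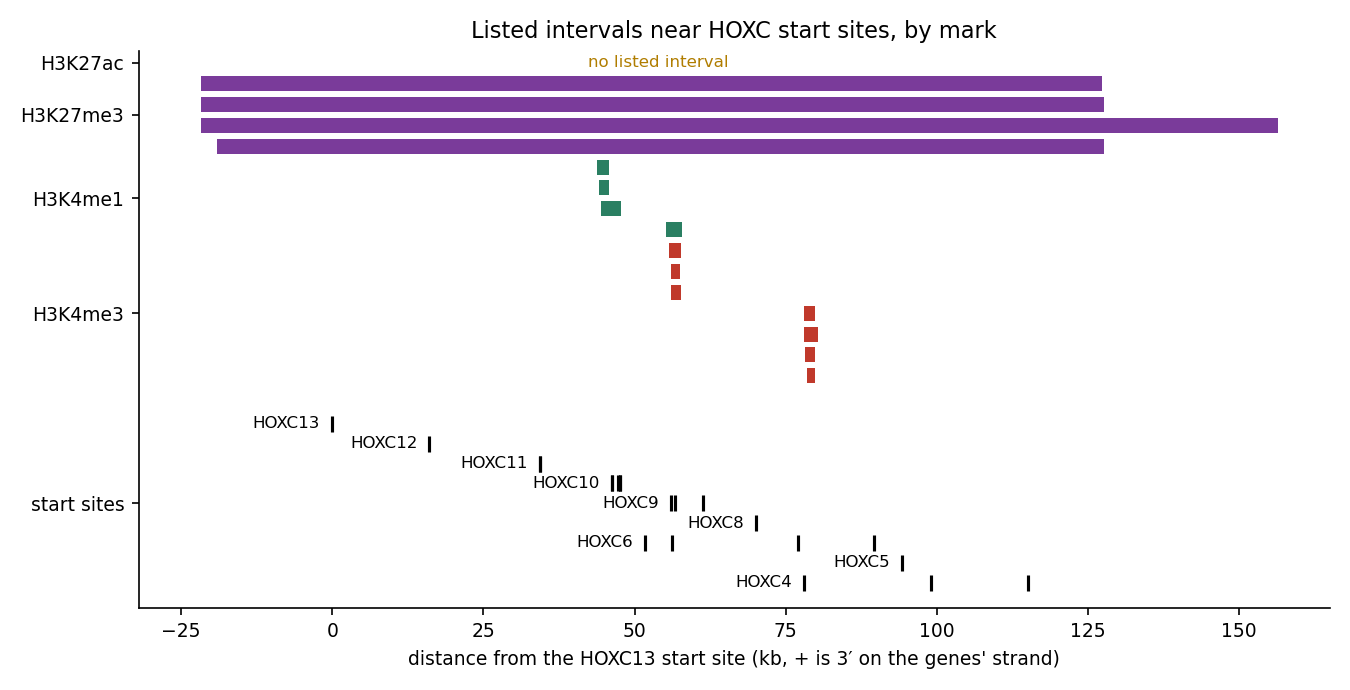
Listed intervals that overlap 2 kb on either side of a HOXC start site, one bar per interval, with the start sites of the 9 genes as ticks, against the distance in kb from the HOXC13 start site. The 4 H3K27me3 bars span all 9 genes, the 4 H3K4me1 and 7 H3K4me3 bars lie at HOXC10, at HOXC9 and at the first HOXC4 start site, and H3K27ac has none.

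The DNA at the centre of the HOXC10 H3K4me1 intervals is shown because HOXC10 is the one HOXC gene with H3K4me1 intervals that no other HOXC gene shares. It was not compared with the DNA of the rest of the H3K27me3 domain. The window, chr12:53983806-53984105, was read from hg38 on the + strand, 300 bases, with CG dinucleotides, which read the same on both strands, in capitals. It is the centre of the 1.363 kb common to the 3 H3K4me1 intervals of HOXC10. It lies before the first HOXC10 start site and downstream of the annotated start sites of HOXC-AS3, a non-coding gene on the opposite strand.
HOXC10 H3K4me1: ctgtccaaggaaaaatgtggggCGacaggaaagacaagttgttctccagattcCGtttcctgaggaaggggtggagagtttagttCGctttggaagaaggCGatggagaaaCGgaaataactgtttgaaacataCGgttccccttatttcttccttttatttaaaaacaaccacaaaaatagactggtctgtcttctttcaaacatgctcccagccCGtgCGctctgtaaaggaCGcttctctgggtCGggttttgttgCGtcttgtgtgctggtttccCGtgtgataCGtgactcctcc

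The HOXC10 window holds 13 CG dinucleotides, and 6.72% of 108163 H3K4me1 intervals with a complete central window reach that number, with a median of 3. Those intervals were not limited to start sites, whereas the HOXC10 intervals were taken for lying near one. The share thus cannot set HOXC10 apart from other intervals near start sites. The like window of the H3K4me3 intervals shared by HOXC6 and HOXC4 holds 16. Of 59226 H3K4me3 intervals, 52.8% reach that number, with a median of 17. In this count the H3K4me1 window of HOXC10 is close to RefSeq promoters of the same length (GRCh38.p14), whose median is 14 over 35116 promoters. RefSeq promoters matched 2 of the 9 HOXC genes, HOXC4 and HOXC5, and none is printed.

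H3K27me3 over the HOXC genes was the widest and most heavily counted interval of its list. The level is given as counts per 1000000 after scaling by edgeR's TMM factors (CPM), per kb of interval. DMSO replicates 1 and 2 were at 45.8 and 43.6 CPM per kb, and PR-957 replicates 1 and 2 at 37.4 and 34.4. Both PR-957 libraries thus lay below both DMSO libraries. The mean was 44.7 ± 1.51 (SD, n = 2) with DMSO, and PR-957 had 35.9 ± 2.11 (SD, n = 2), beside a median DMSO level of 1.54 CPM per kb over the list. Among 33437 listed intervals it ranked 1 in width, 1 in mean count and 23 in CPM per kb. Its 77168, 88300, 71910 and 79316 counts were, with 1 interval taken per locus, 2.92%, 2.79%, 2.60% and 2.45% of the H3K27me3 counts over 13897 loci.

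In edgeR, 9 of 9 HOXC genes were called lower in PR-957 at an adjusted p under 0.05, all through this interval, and 0 of 9 under cyclic loess offsets, which turned the sign, beside 5.92% of the 31806 tested H3K27me3 intervals called, 5.09% lower and 0.824% higher. This balance also turned with the scaling, from 1620 lower and 262 higher under TMM to 703 lower and 1514 higher by library size alone. Cyclic loess offsets gave 968 lower and 801 higher. H3K27me3 over HOXC fell by 0.32 on the log2 scale (standard error 0.0390, 95% confidence interval of the fold change -0.39 to -0.24, adjusted p = 2.29e-11) under TMM, whereas it was 0.04 higher under cyclic loess offsets (standard error 0.0178, adjusted p = 0.207). It ranked 185 by p. In bulk libraries, a loss of H3K27me3 over HOXC in a share of the cells and a smaller loss in every cell cannot be told apart. The 3 HOXC intervals with the smallest p lie within it or nearly so, chr12:53919764-54066445, chr12:53917074-54066468 and chr12:53917069-54066142, each with a log2 fold change of -0.32 and adjusted p from 1.58e-11 to 1.63e-11 in edgeR. DESeq2 called all 4 HOXC intervals too, beside 20.9% of the 6210 intervals to which it gave an adjusted p.

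The 4 overlapping intervals allow the domain to be divided. The shortest of them, chr12:53919764-54066445 with 146.681 kb from before HOXC13 to after HOXC4 and called the body below, had 55.0 and 52.4 CPM per kb with DMSO and 44.8 and 41.2 in PR-957. The widest interval adds 28.723 kb downstream of HOXC4, and its count there, taken as its count less that of chr12:53917074-54066468, which starts slightly before it, was 2.62 and 2.70 CPM per kb in DMSO and 2.66 and 2.52 in PR-957. In this extension the libraries of the treatments overlapped, while in the body they did not. The separate interval chr12:54070083-54093136, which covers most of the extension, did not overlap either, at 3.01 and 3.07 in DMSO and 2.94 and 2.67 in PR-957 (log2 fold change -0.12, adjusted p = 0.529 in edgeR). The body was 20.2-fold above the extension in DMSO and 16.6-fold above it in PR-957. As a log2 ratio within a library, body over extension was 4.39 and 4.28 in DMSO and 4.07 and 4.03 in PR-957, a difference of -0.28. It was -0.20 with that separate interval in place of the extension, and -0.34 to -0.23 with a library left out. A single factor per library cancels in this ratio, whereas cyclic loess offsets, a curve over mean count, need not cancel and were not applied to it. The exact two-sided permutation test gave p = 0.33, the smallest that 2 libraries against 2 allow, and the division was chosen after the values were seen.

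The body ended close to the genes. The widest interval begins 21.722 kb before the HOXC13 start site and reaches 41.356 kb past the last HOXC4 start site, with 115.004 kb from the first HOXC start site to the last. Of the 11 listed intervals of the domain, the 7 outside the start site windows lie in the extension and the upstream end, with levels of 1.20 to 3.15 CPM per kb in DMSO. Of these 7, edgeR called 0, with 1 at an unadjusted p under 0.05, and DESeq2 called 0 of the 3 to which it gave an adjusted p. That one, chr12:54067173-54070327, just past the downstream end of the body, had 1.21 and 1.20 CPM per kb in DMSO and 1.94 and 2.28 in PR-957 (log2 fold change 0.81, standard error 0.27, adjusted p = 0.0538 in edgeR). It was named after its values were seen.

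**Figure D2:**
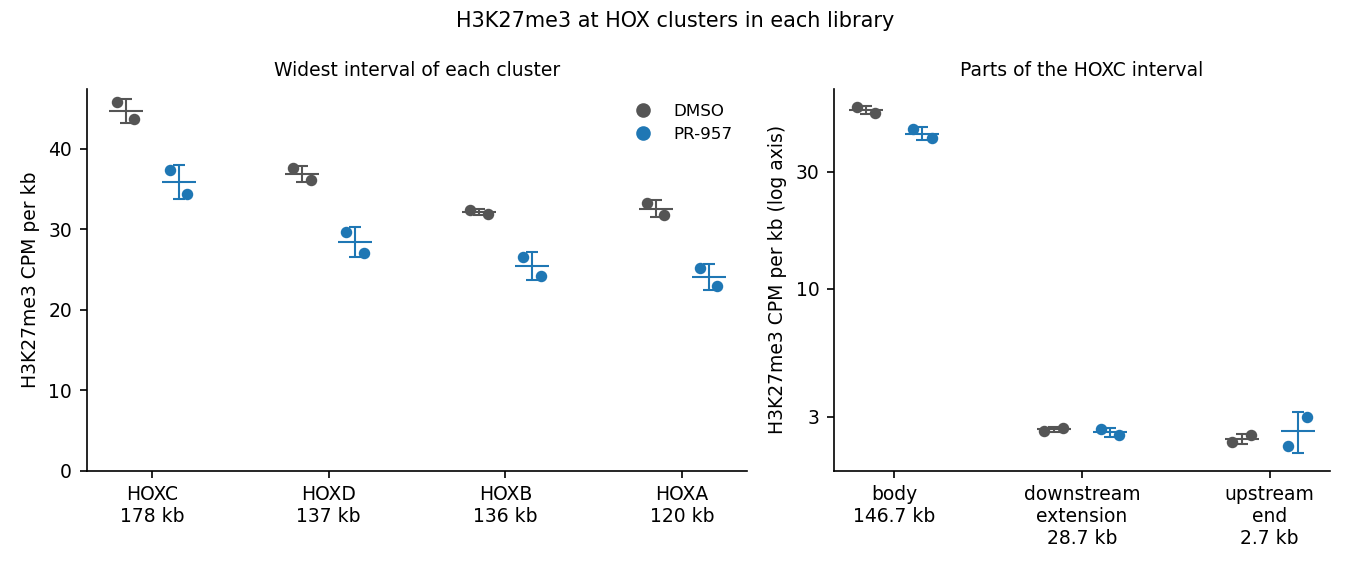
H3K27me3 in CPM per kb in each library (points, with the mean as a line and the SD of 2 libraries as bars), for the widest interval of each HOX cluster and, on a log axis, for the body, downstream extension and upstream end of the HOXC interval. The HOXC interval is at 43.6 to 45.8 in DMSO and 34.4 to 37.4 in PR-957, and the extension at 2.52 to 2.70 in all 4 libraries. These values use TMM factors, and under cyclic loess offsets the HOXC interval was not lower in PR-957.

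The size of the change depended on the scaling between libraries, and its sign turned under 1 of 4. The log2 fold change of the HOXC interval was -0.31 with median-of-ratios factors (adjusted p = 5.10e-10) and -0.16 with library size only (adjusted p = 8.71e-09). Library size only moved the median of all H3K27me3 intervals from 0.02 to 0.18. That shift is common to all intervals and leaves the place of HOXC among them as it was. Cyclic loess offsets, which gave HOXC its 0.04, follow a curve over mean count, and the HOXC intervals hold the 4 highest ranks on that curve. Over all alternatives, the adjusted p of the HOXC genes ran from 2.91e-17 to 0.207.

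The HOXC value was close to the median of the intervals with the highest counts. Under TMM, the 100 tested H3K27me3 intervals of highest mean count had a median log2 fold change of -0.32, the same as HOXC, and 84 of them were called lower and 4 higher. The next 900 had a median of -0.22, the next 9000 one of -0.06 and the remaining 21806 one of 0.08. The first 100 hold the 4 HOXC intervals and those of the other HOX clusters, and overlapping intervals count repeatedly. With 1 interval per locus and the 9 loci of HOX genes left out, the first 100 loci had a median of -0.29, with 72 called lower, 1 higher and 27 not called, and the next 900 a median of -0.07. With overlapping intervals merged into loci, the 4 loci of highest mean count were HOXC, HOXD, HOXB and HOXA, in that order, and each was called lower under TMM. The locus in place 5, chr19:1715245-1790193 with ONECUT3, had a like level of 38.4, 37.8, 39.1 and 36.2 CPM per kb and was not called (log2 fold change -0.02, adjusted p = 0.908 in edgeR). Among places 6 to 10, UNCX and EFNA2 were not called, while ZIC5 with ZIC2 (-0.30), EN2 (-0.25) and PTK2 (-0.40) were called lower under TMM, so that a change of the HOXC size was not limited to HOX loci. These ranks and loci were looked up after the fold changes were seen.

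**Figure D3:**
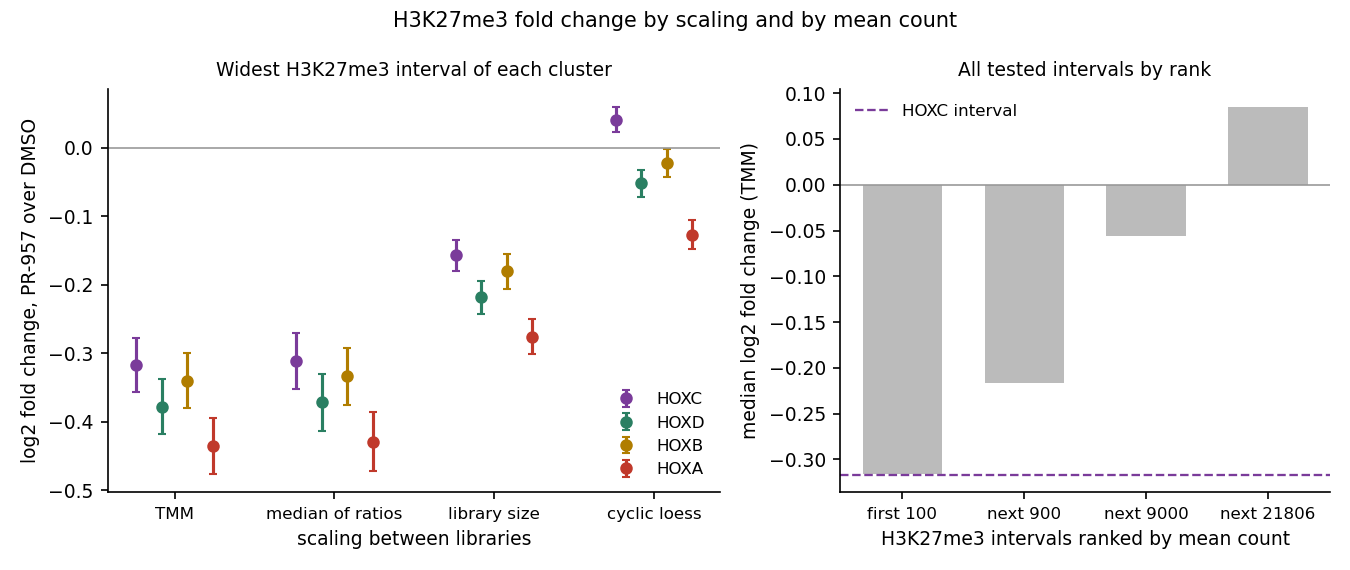
Log2 fold change of H3K27me3, PR-957 over DMSO, for the widest interval of each HOX cluster under 4 scalings (points, with the standard error as bars), and the median log2 fold change under TMM of all tested intervals in classes ranked by mean count (bars), with the HOXC value as a dashed line. HOXC lies at -0.32, -0.31 and -0.16 under the first 3 scalings and at 0.04 under cyclic loess offsets, and the class medians run from -0.32 in the first 100 intervals to 0.08 in the last class.

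The other HOX clusters, which hold paralogs of the HOXC genes, show where HOXC differs. In DMSO, the mean log2 CPM per kb of H3K27me3 over a cluster's genes was highest in HOXC at 5.48, then 5.20 in HOXD, 4.99 in HOXB and 3.94 in HOXA. HOXC minus HOXD was 0.28 ± 0.00771 (SD, n = 2), HOXC minus HOXB 0.49 ± 0.0314 (SD, n = 2) and HOXC minus HOXA 1.55 ± 0.0123 (SD, n = 2). Each of these differences exceeds its SD and has the same sign in 4 of 4 libraries. By widest interval HOXC leads as well, at 178.082 kb beside 136.886 kb in HOXD, 136.098 kb in HOXB and 119.893 kb in HOXA.

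H3K27me3 over the paralogs of the HOXC genes was tested in the same way. Under TMM, edgeR called 9 of 9 HOXC genes, 9 of 9 HOXD genes, 10 of 10 HOXB genes and 9 of 11 HOXA genes lower, through 1, 1, 2 and 2 intervals. Over all tested H3K27me3 intervals 5.09% were called lower, and 84 of the 100 intervals of highest mean count were. The widest HOXA interval, over HOXA3, HOXA5 and others, had a log2 fold change of -0.43 (95% confidence interval -0.52 to -0.35). The 95% confidence interval of HOXC, at -0.32, was -0.39 to -0.24 and overlapped it. The difference between the fold changes of the widest HOXA and HOXC intervals was not tested. The interval over HOXD1 and HOXD3 had a log2 fold change of -0.38. HOXA2 (-0.61, adjusted p = 0.000381 in edgeR) and HOXA4 (0.19, adjusted p = 0.804) have intervals of their own. Among HOXB genes, HOXB13 was at -0.42 and HOXB1, in the widest interval, at -0.34. The mean log2 level of HOXC less that of another cluster, taken within each library, moved by 0.07 against HOXA, 0.03 against HOXB and 0.06 against HOXD. Each is positive, so that the HOXC value moved up relative to each paralogous cluster, and the libraries of the treatments did not overlap. The exact two-sided permutation p was 0.33 for each, the smallest possible. With a library left out, the HOXC move ran from 0.04 to 0.10 against HOXA, from 0.01 to 0.05 against HOXB and from 0.05 to 0.07 against HOXD. Against HOXB the treatments nearly touched, at 0.511 in DMSO replicate 1 and 0.512 in PR-957 replicate 1. Under cyclic loess offsets, the widest HOXA interval (log2 fold change -0.13, adjusted p = 9.09e-07) and that of HOXB13 (-0.16, adjusted p = 1.12e-07) were still called lower, while the widest HOXB (-0.02) and HOXD (-0.05) intervals were not.

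H3K4me3 at HOXC4 was weak, and no difference between treatments was called. HOXC4 and HOXC6 are represented by chr12:54016864-54019140, which starts 67 bp before the first HOXC4 start site and 967 bp after the nearest HOXC6 start site. It had 140 and 132 counts in DMSO and 109 and 86 in PR-957, or 1.38 and 1.39 against 1.57 and 1.25 CPM per kb. The PR-957 libraries lie on either side of the DMSO libraries. The log2 fold change was 0.03 (standard error 0.24, 95% confidence interval -0.44 to 0.49, adjusted p = 0.992 in edgeR), and -0.04 under cyclic loess offsets. Without PR-957 replicate 1 it was -0.15, so that its direction rests on that library. Its DMSO level of 1.38 ± 0.0121 (SD, n = 2) CPM per kb is above 18.4% of listed H3K4me3 intervals, whose median is 4.07.

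H3K4me3 at HOXC9 was lower still. Its interval chr12:53994470-53996549 covers 2 of its 3 start sites, with 70 and 90 counts in DMSO and 58 and 38 in PR-957. That is 0.753 and 1.04 against 0.916 and 0.604 CPM per kb, and the treatments overlap. In edgeR this is a log2 fold change of -0.24 with a standard error of 0.34 and an adjusted p of 0.936, with 8.89% of listed intervals at a lower level. The HOXC9 value turned to 0.01 with DMSO replicate 2 left out and to 0.03 with PR-957 replicate 2 left out. The other intervals of HOXC9 and HOXC6, chr12:53994903-53996491 and chr12:53994896-53996273, had the smallest p of the HOXC H3K4me3 intervals, 0.273 and 0.284 unadjusted in edgeR, with log2 fold changes of -0.38 and -0.39.

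H3K4me1 at HOXC10 was the strongest of the H3K4me1 signals in the cluster. Its interval chr12:53983274-53986579 covers all 5 HOXC10 start sites and had 118 and 132 counts in DMSO and 63 and 83 in PR-957. The levels were 1.21 and 1.67 against 1.22 and 1.09 CPM per kb, so that DMSO replicate 1 lies within the PR-957 range. The log2 fold change was -0.31 (standard error 0.22, 95% confidence interval -0.74 to 0.11, adjusted p = 0.487 in edgeR), with a DMSO level above 39.8% of listed H3K4me1 intervals. The HOXC10 value ran from -0.53 with DMSO replicate 1 left out (unadjusted p = 0.0416, adjusted p = 0.419 in edgeR) to -0.07 with DMSO replicate 2 left out. The 2 other HOXC10 intervals, chr12:53982537-53984637 and chr12:53982866-53984673, had log2 fold changes of -0.38 and -0.39.

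H3K4me1 at HOXC9 and HOXC6 was near the bottom of its list. The shared interval chr12:53993995-53996736 had 60 and 48 counts in DMSO and 23 and 40 in PR-957, or 0.741 and 0.732 against 0.539 and 0.635 CPM per kb. Both PR-957 libraries lie below both DMSO libraries, with a log2 fold change of -0.32 in edgeR, a standard error of 0.36 and an adjusted p of 0.711. Cyclic loess offsets gave -0.53 (adjusted p = 0.478). Only 7.74% of listed H3K4me1 intervals had a lower DMSO level.

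For neither H3K4 mark was a HOXC gene called. In H3K4me1, edgeR called 0 of the 3 HOXC genes with an interval, beside 1.94% of 108158 tested intervals (0.699% lower, 1.24% higher), and 0 of the 4 HOXC intervals had an unadjusted p under 0.05. In H3K4me3, edgeR called 0 of 3 HOXC genes, beside 0.226% of 59229 (0.0456% lower, 0.181% higher), and 0 of 7 HOXC intervals had an unadjusted p under 0.05. DESeq2 called 0 of 4 HOXC intervals in H3K4me1, and in H3K4me3 0 of the 4 of 7 to which it gave an adjusted p, beside 0.0245% of intervals in H3K4me1 and 0.0636% in H3K4me3. These HOXC intervals held 23 to 140 counts per library, and the 95% confidence interval of each fold change at the representing intervals includes 0.

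**Figure D4:**
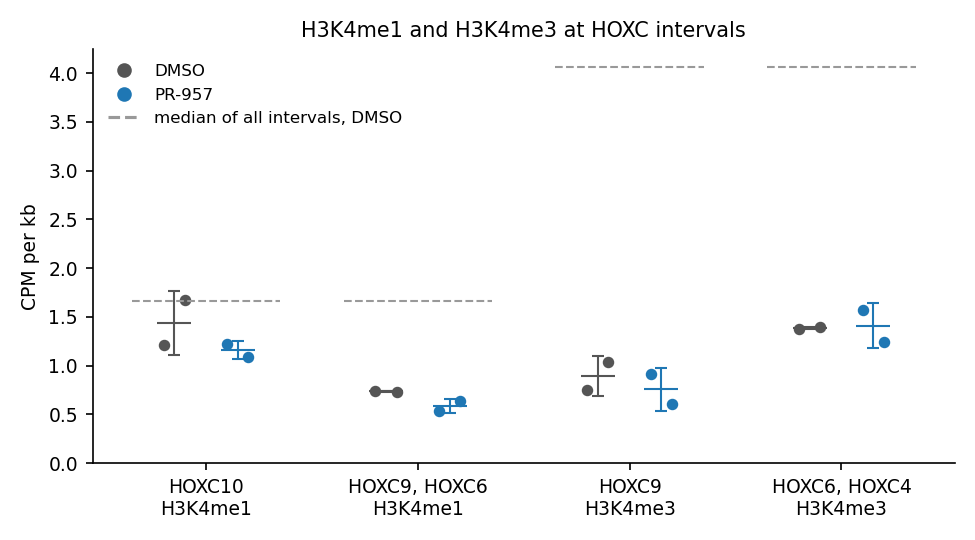
H3K4me1 and H3K4me3 in CPM per kb in each library (points, with the mean as a line and the SD of 2 libraries as bars) at the intervals that represent HOXC10, HOXC9, HOXC6 and HOXC4, with the median DMSO level of all listed intervals of the mark as a dashed line. DMSO replicate 2 at HOXC10, at 1.67, is the one point that reaches its mark's median of 1.66, and the H3K4me3 points, at 0.604 to 1.57, lie well under theirs of 4.07.

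Next to the other clusters, HOXC stood between HOXA and the rest in H3K4 methylation. In DMSO, the mean log2 CPM per kb of H3K4me3 over the genes with an interval was 0.25 for 3 HOXC genes, 1.93 for 9 HOXA genes, -0.90 for 2 HOXB genes and -0.94 for 2 HOXD genes. HOXC minus HOXA was thus -1.68 ± 0.129 (SD, n = 2), HOXC minus HOXB 1.15 ± 0.339 (SD, n = 2) and HOXC minus HOXD 1.20 ± 0.187 (SD, n = 2). In H3K4me1, HOXC was at -0.12 and HOXA at 0.30 with 7 genes, HOXC minus HOXD was 0.88 ± 0.325 (SD, n = 2) with HOXD3 alone, and HOXB had no interval. In PR-957 the H3K4me3 difference moved by -0.64 against HOXB, represented by HOXB7 and HOXB8, and by -0.54 against HOXD, represented by HOXD8 and HOXD13. HOXC itself moved by -0.07, and the rest came from HOXB (0.56) and HOXD (0.47), whose intervals had 22 to 88 counts per library and were not called. Both had an exact permutation p of 0.33, the smallest possible. With a library left out, the move ran from -0.95 to -0.32 against HOXB and from -0.67 to -0.41 against HOXD. The H3K4me3 difference of HOXC against HOXA moved by 0.05 (exact permutation p = 1), and its sign turned with a library left out (-0.19 to 0.30). In H3K4me1 it moved by -0.11 against HOXA (exact permutation p = 0.667) and by 0.12 against HOXD (exact permutation p = 1). With a library left out, these HOXC values ran from -0.21 to -0.02 and from -0.88 to 1.12, the latter on both sides of 0.

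H3K27ac separated HOXA from HOXC. Of the HOX genes, 8 of 11 HOXA genes had an H3K27ac interval, among them HOXA3 and HOXA6 (8.95 CPM per kb in DMSO), and 0 of 9 HOXC, 0 of 10 HOXB and 0 of 9 HOXD genes had one. With no interval at HOXC, edgeR and DESeq2 tested 0 there and called 0 (0 at an unadjusted p under 0.05), beside 0.238% of 74510 intervals called by edgeR (0.173% lower, 0.0644% higher) and 0.818% by DESeq2. The nearest H3K27ac interval before the cluster lies 210.582 kb from the HOXC13 start site, near CALCOCO1, and the nearest after it lies 223.689 kb past the last HOXC4 start site, near CBX5. H3K4me1 and H3K4me3 likewise had no listed interval in the H3K27me3 domain other than those of the start site windows. The next ones lie 310.914 and 138.943 kb away for H3K4me1 and 186.147 and 133.741 kb away for H3K4me3, before the first and past the last HOXC start site. In the HOXA cluster, edgeR called H3K27ac lower at HOXA3 and HOXA6 (log2 fold change -0.18, adjusted p = 0.00825) and H3K4me1 lower at HOXA13 (-0.48, adjusted p = 0.0424), while H3K4me1 at HOXA9 (-0.34) and H3K4me3 at HOXA3 and HOXA6 (-0.17) were not called. The H3K27ac call at HOXA3 and HOXA6 was lost under cyclic loess offsets (-0.14, adjusted p = 0.186), and the H3K4me1 call at HOXA13 under library size only, cyclic loess offsets and DESeq2 (-0.44, -0.45 and -0.49, adjusted p = 0.0777, 0.0751 and 0.565), where the fold change stayed about as large. The files list intervals only, so that H3K27ac under the calling threshold at HOXC genes cannot be seen.

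The 5 non-coding genes of the cluster all had the shared H3K27me3 interval, and 2 of them shared H3K4 intervals of coding genes. HOTAIR, which is transcribed from the strand opposite HOXC11 and HOXC12 and is known for its binding to Polycomb proteins, had the shared H3K27me3 interval and no other mark, and so had HOXC13-AS and HOXC-AS1, the latter beside the last HOXC9 start site. HOXC-AS3 shared the H3K4me1 intervals of HOXC10. HOXC-AS2 shared the H3K4me1 and H3K4me3 intervals of HOXC9.

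Outside the cluster the picture changed. Besides ENSG00000273049, an unnamed coding gene that starts within HOXC10 and shares its intervals, the coding genes with a start site within 200 kb of the outermost HOXC start sites are SMUG1 and CBX5. SMUG1, a DNA repair glycosylase gene 119.394 kb past the last HOXC4 start site, has an H3K27me3 interval of 75.743 kb, chr12:54101057-54176800. It had 8.85 and 8.54 CPM per kb in DMSO and 8.56 and 7.95 in PR-957, and a log2 fold change of -0.07 (adjusted p = 0.478 in edgeR). HOXC over SMUG1, as a log2 ratio within a library, was 2.37 and 2.35 in DMSO and 2.13 and 2.11 in PR-957, a difference of -0.24 (exact permutation p = 0.33, the smallest possible). SMUG1 had H3K4me3 (log2 fold change -0.08) and CBX5, which encodes the heterochromatin protein HP1 alpha, had H3K27ac (-0.23, adjusted p = 0.0817), H3K4me1 (0.19) and H3K4me3 (-0.08) and no H3K27me3 interval. Under TMM, edgeR called neither gene in any mark. H3K27me3 at SMUG1 turned to 0.09 under library size only and was called higher under cyclic loess offsets (0.13, adjusted p = 0.00162).

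The 5 genes outside the HOX clusters whose levels over all 16 libraries were most like the median of the HOXC genes were UNCX, TMEM59L, EVX2, EFNA2 and PRAC1. The measure is the Euclidean distance in log2 of CPM per kb plus 1, which was 0.238, 0.582, 0.604, 0.630 and 1.26 for these genes, with a median of 11.7 over 19966 genes. All 5 have H3K27me3 only, as the HOXC median does. HOXC10, HOXC9, HOXC6 and HOXC4 lie 2.28 to 2.92 from that median because of their H3K4 intervals, which is farther than these 5 genes. EVX2 and PRAC1 are neighbours of HOXD13 and HOXB13 and share their H3K27me3 intervals, called lower under TMM.

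UNCX, TMEM59L and EFNA2 had HOXC-like levels of H3K27me3, and HOXC moved relative to each of them. UNCX, a homeobox gene, had 40.3 and 39.2 CPM per kb in DMSO and 38.2 and 35.0 in PR-957. HOXC over UNCX within a library was 0.18 and 0.15 on the log2 scale in DMSO and -0.03 and -0.02 in PR-957, so that HOXC was above UNCX in both DMSO libraries and below it in both PR-957 libraries. A single factor per library cancels in the difference of -0.20. Against TMEM59L the HOXC ratio moved by -0.20 and against EFNA2 by -0.39, while against EVX2 it moved by 0.06 and against PRAC1 by 0.11. In none of the 5 did the treatments overlap, and each had an exact permutation p of 0.33, the smallest possible. The ratios to EVX2 and PRAC1 are ratios to the HOXD and HOXB13 intervals and add no further locus to the cluster comparison. Under TMM, edgeR gave -0.12 for UNCX, -0.12 for TMEM59L and 0.07 for EFNA2, not called (adjusted p = 0.0663, 0.115 and 0.393). These calls turned with the method. DESeq2 called UNCX lower (-0.12, adjusted p = 0.0495), library size only called EFNA2 higher (0.23, adjusted p = 1.25e-12), and cyclic loess offsets called UNCX (0.17), TMEM59L (0.12) and EFNA2 (0.36) higher.

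HOX proteins bind DNA with TALE cofactors of the MEIS, PBX and PKNOX families. In H3K27me3, 2 of 4 TALE genes with an interval were called lower under TMM, MEIS2 (log2 fold change -0.53, adjusted p = 4.34e-12 in edgeR) and PKNOX2 (-0.28, adjusted p = 3.38e-05), and 0 higher, beside 5.92% of all intervals called. Their median of -0.27 stands beside 0.02 over all intervals and -0.32 for HOXC. PKNOX2 was not called under library size only or cyclic loess offsets. In H3K27ac, 1 of 5 was called, beside 0.238% of all intervals. It was MEIS1, which was lower (-0.28, adjusted p = 4.06e-07 in edgeR), while PKNOX1 was not called (0.17). In H3K4me1 edgeR called 0 of 3 and in H3K4me3 0 of 7, beside 1.94% and 0.226% of all intervals. In each mark 1 gene had an unadjusted p under 0.05, PBX3 (0.87) and MEIS2 (0.17). DESeq2 called 0 in both, beside 0.0245% and 0.0636% of intervals. PKNOX2, at 0.24 and -0.47, was next in these marks.

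Genes that write, read and remove H3K27me3 were listed as well. Of 30 Polycomb and H3K27 demethylase genes, 1 of 8 was called in H3K27me3, beside 5.92% of all intervals, PCGF1 (log2 fold change -0.28, adjusted p = 0.00681 in edgeR, not called under library size only or cyclic loess offsets), with CBX2 next at -0.12. In H3K4me1, 1 of 17 was called, beside 1.94% of all intervals, the demethylase gene KDM6B (-0.48, adjusted p = 0.0136 in edgeR), and CBX7 was at -0.49 (adjusted p = 0.0814). In H3K27ac edgeR called 0 of 24, beside 0.238% of all intervals, CBX6 (0.71) and PCGF3 (-0.21) having the smallest p. In H3K4me3 it called 0 of 26, beside 0.226% of all intervals, PHC3 (-0.20) and BMI1 (-0.12) having the smallest p. In each of these 2 marks 1 gene had an unadjusted p under 0.05. DESeq2 called 0 of the 8 genes with an adjusted p in H3K27ac and 0 of 26 in H3K4me3, beside 0.818% and 0.0636% of intervals. DESeq2 did not call KDM6B either (log2 fold change -0.48, adjusted p = 0.449), where the fold change stayed about as large. The medians of the 4 marks were -0.02 in H3K27ac, -0.07 in H3K27me3, -0.10 in H3K4me1 and -0.02 in H3K4me3.

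Lineage genes were looked up to check the cell type. Of 10 myeloid genes, 10 had H3K27ac, 10 had H3K4me1 and 9 had H3K4me3 intervals, all but MPO, and 0 had an H3K27me3 interval. In H3K27ac and H3K27me3 this is the reverse of the HOXC genes, while in H3K4 methylation some HOXC genes had intervals too. The summed H3K27ac level of the myeloid genes was 45.5 and 45.8 CPM per kb in DMSO and 40.5 and 44.5 in PR-957, with SPI1 the highest.

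Genes of other lineages, 4 per list, had fewer marks of activity and more H3K27me3. Of the B lymphoid genes 2 had H3K27ac, 3 H3K4me1, 3 H3K4me3 and 2 H3K27me3 intervals. Of the T lymphoid genes 1 had H3K27ac, 3 H3K4me1, 2 H3K4me3 and 2 H3K27me3. Of the erythroid genes 1 had H3K27ac, 2 H3K4me1, 2 H3K4me3 and 1 H3K27me3. Epithelial genes had no H3K27ac, and 1 had each of the other marks. Of the mesenchymal genes 1 had H3K27ac, 3 H3K4me1, 2 H3K4me3 and 3 H3K27me3, and of the neural genes 1, 2, 2 and 3 in the same order.

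H3K27me3 at some of these genes moved as it did at HOXC under TMM. PAX6 (-0.42, adjusted p = 8.16e-15 in edgeR), TWIST1 (-0.49, adjusted p = 2.08e-09), PAX5 (-0.34, adjusted p = 5.74e-09) and OLIG2 (-0.31, adjusted p = 3.71e-05) were called lower. This is 4 of 12 genes with an interval, beside 5.92% of all intervals called. The other 8 were not called, and some of them had higher values in PR-957, with 0.31 at COL1A1, 0.37 at EPCAM and 0.84 at KLF1. By library size alone, COL1A1 was called higher (0.48, adjusted p = 0.0421). Unlike HOXC, all 4 were also called lower under cyclic loess offsets, at -0.17, -0.39, -0.15 and -0.18, while OLIG2 was not called under library size only (adjusted p = 0.0763). PAX6 had the highest level, and the summed level of its neural list was 48.5 and 48.1 CPM per kb in DMSO and 38.1 and 36.4 in PR-957. H3K4me3 at PAX6 was called higher in PR-957 (log2 fold change 0.67, adjusted p = 0.0184 in edgeR). Its level was low, at 0.856 and 0.856 CPM per kb in DMSO and 1.37 and 1.35 in PR-957, beside a median DMSO level of 4.07. H3K4me3 at PAX5 (0.07), TWIST1 (0.06) and OLIG2 (0.20) was not called (adjusted p = 0.934, 0.957 and 0.834 in edgeR). Of all tested H3K4me3 intervals, 0.181% were called higher. The part of these lineage genes in the HOXC result was not tested. No expression of HOXC genes was measured in these libraries.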

How the data were processed

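The counts per listed interval were deposited by the authors and were used as the files give them, as raw counts. The submitters' notes name Trimmomatic 0.39, Bowtie2 2.2.5, Picard 2.27.1, SAMtools 1.7, SEACR 1.3 and deepTools 3.5.1. The paper gives the peak caller as MACS2 or SEACR. Which program made the counts, and whether duplicates were left in them, is not stated. Whether coordinates start from 0 or 1 is not stated either, and they are printed as the files list them.

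Each mark was tested on its own in edgeR 4.0.16 (R 4.3.3) with TMM factors, filterByExpr at a minimum count of 10, the quasi-likelihood F test of PR-957 against DMSO and Benjamini-Hochberg adjustment over all tested intervals of the mark at 0.05. The standard error was taken as the log2 fold change over the square root of F. DESeq2 1.42.0 and the cyclic loess of limma 3.58.1 served as alternatives, and Python 3.11.15 with pandas 2.3.3, NumPy 2.4.6, SciPy 1.17.1 and matplotlib 3.10.9 did the rest. The scripts were tested on simulated data. The labels do not say whether the 2 libraries of a group came from separate cultures, so the p-values measure only the spread between libraries, which may be technical. Levels are CPM after TMM per kb of interval.

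The HOXC members and the gene lists were chosen with earlier results of these data known. Named are the 9 HOXC genes, the 5 non-coding genes of the cluster, per mark the 3 HOXC intervals with the smallest p, coding genes starting within 200 kb, the 2 genes with the smallest p per list and mark, and the 5 genes outside HOX clusters nearest to HOXC in pattern.

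As alternatives, the fit was repeated with a replicate block, with each library left out, in DESeq2, without the filter and with intervals of a mean count from 50 up. Scaling was repeated by cyclic loess offsets, by library size only and by median-of-ratios factors. Intervals were chosen anew with windows of 1 and 5 kb, and by the highest mean count per kb. Alternatives for the divided HOXC domain, for the widest interval of the other clusters and for HOXC ratios within a library were chosen after seeing the data.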

Additional observations from a re-analysis of the deposited data

How the results depend on the processing

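H3K27me3 over HOXC was lower in PR-957 under TMM and turned to 0.0412 higher under cyclic loess offsets for the 9 genes, where 0 HOXC intervals and 0 HOXC genes were called, against 4 and 9 under TMM. Cyclic loess fits a curve over mean count, and the HOXC intervals lie at its upper end. Leaving out a library gave -0.39 to -0.27, called each time, as did a replicate block. Under cyclic loess offsets the widest HOXB and HOXD intervals were at -0.02 and -0.05.

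H3K4me3 at HOXC6 and HOXC4 was -0.0436 under cyclic loess offsets and ran from -0.15 to 0.18 with a library left out, and at HOXC9 it ran from -0.57 to 0.0317. The cause was not tested. H3K4me1 at HOXC9 and HOXC6 has no value with a mean count of at least 50, and H3K27ac has none at HOXC under any setting.

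Levels between clusters moved with the choice of interval. HOXC minus HOXA in H3K27me3 was 1.45 with a window of 5 kb and 1.64 with the highest count per kb, against 1.55. With the highest count per kb, HOXC minus HOXB was 0.57 and HOXC minus HOXD 0.41 in H3K27me3. HOXC minus HOXA in H3K4me1 was -0.18 with 5 kb and -0.73 per kb. In H3K4me3, HOXC minus HOXA was -1.35 per kb, and HOXC minus HOXD was 0.90 with 5 kb and 1.47 per kb. The response of HOXC less HOXA in H3K4me3 was -0.0329 per kb and -0.19 to 0.30 with a library left out, and that of HOXC less HOXD in H3K4me1 was -0.88 to 1.12. These differences rest on other intervals for some genes, and the cause of the responses was not tested.

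Over all intervals, DESeq2 called 66 in H3K27ac, 26 in H3K4me1 and 34 in H3K4me3, against 177, 2097 and 134 in edgeR. With a library left out, edgeR called 23 to 89 in H3K27ac, 1168 to 1518 in H3K27me3 (against 1882), 322 to 1756 in H3K4me1 and 28 to 170 in H3K4me3. Leaving out a library leaves 1 in its treatment, whose spread edgeR then takes from the other treatment. The cause was not tested.

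Deviations of replicates of the same number were correlated most in H3K4me3, with correlations of deviations of -0.0116 in H3K27ac, -0.00765 in H3K27me3, 0.0371 in H3K4me1 and 0.172 in H3K4me3, and a paired design was kept as an alternative only.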
